A study of Mus with 8 samples.

Results

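The genes described here are S100a4, whose control regions drive the Cre recombinase of this study, and 6 relatives in the S100 family: S100a1, S100a6, S100a10, S100a11, S100a13 and S100a16. They were chosen by name, and their probes were found through the RefSeq accession that the scanner files give for each probe. The array carries 9 such probes among 56605 that are not controls, and all 7 genes passed the filter on dim probes, among 16056 genes tested. Expression was measured in 8 whole subcutaneous tumours grown from Pan02 cells, a mouse pancreatic cancer line, in B6 mice.

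The 4 Mutant tumours grew in hosts of genotype Ext1 flox/flox; S100a4-Cre, in which Ext1, a gene for an enzyme that elongates heparan sulfate chains, can be deleted wherever the Cre is made. The 4 Control tumours grew in wild type hosts, which per the labels carry neither the floxed allele nor the Cre. All tumours came from the same cells, which lack the transgene, and were taken 36 to 40 days after transplantation, from 4 mice per group. Cre under S100a4 control is used to reach fibroblasts, but S100a4 is also made by macrophages, other immune cells and many cancer cells. The Cre is not limited to fibroblasts, and an S100a4 signal from a whole tumour does not say which cells made it. With wild type hosts as Control, an effect of the Cre itself or of the floxed allele before deletion cannot be told apart from the loss of Ext1.

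S100 proteins are small calcium-binding proteins of the EF-hand type, found in vertebrates, that usually work as dimers. When calcium binds, most of them open a groove that holds a partner protein, such as an annexin or a myosin, and some are also released and act on receptors at the cell surface. In pancreatic and other tumours S100a4 is known as a marker of fibroblasts and of motile, mesenchymal-like cancer cells, and S100a6, S100a10 and S100a11 are widely made by epithelial tumour cells.

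In the reference annotation (GRCm38.p6) all 7 genes lie on one chromosome in a cluster of S100 genes. S100a1 and S100a13 are direct neighbours, S100a16 and S100a6 lie on either side of S100a4 with other S100 genes between, and S100a11 and S100a10 form an adjacent pair at the far end. The array was designed on a different assembly, and positions are therefore not printed.

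Levels are log2 processed signals after subtraction of each array's 75th percentile, and differences are Mutant minus Control on the same log2 scale. Levels of different genes come from different probes and were not compared with each other. An array had 61.5% to 67.2% of its probes well above background, and every probe of the 7 genes was well above background on all 8 arrays. The array of Control 4 stood apart, with a mean correlation of 0.935 with the other arrays, where those of the other 7 tumours lay between 0.964 and 0.973. Where leaving it out moved a difference by more than 1.5 times or changed its sign, the value without it is given too. The Ext1 probe read 3.15 ± 0.22 in Mutant and 3.07 ± 0.76 in Control tumours (SD, n = 4 each). It does not check the labels, since whole tumours also hold Pan02 cells, which lack the transgene. Its place relative to the floxed part was not known either.

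No difference between Mutant and Control tumours was detected for any of the 7 S100 genes. Of the 7, 0 passed an adjusted p under 0.05 in limma, against 0.00% of all genes, 0 had an unadjusted p under 0.05, against 2.91% of all genes, and 0 had groups that did not overlap, against 1.41% of all genes. The adjusted p was 1.00 for each of them in limma. The differences lay above 0 for 3 of the 7, S100a4, S100a11 and S100a1, against 52.4% of all genes, and their median was -0.05 against 0.01 over all genes. Without Control 4, 6 of the 7 lay above 0, against 46.9% of all genes, with a median of 0.12 against -0.02.

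S100a4 binds non-muscle myosin and is linked to cell motility. Its signal was 8.59, 8.66, 8.56 and 7.90 in Mutant tumours 1 to 4 and 7.80, 7.64, 8.63 and 8.69 in Control tumours 1 to 4. Mutant 4, Control 1 and Control 2 were low, the other 5 tumours were high, and each group held both kinds. The Mutant mean was 8.43 ± 0.35 and the Control mean 8.19 ± 0.54 (SD, n = 4 each). The difference was 0.24 with an SE of 0.30 and a 95% interval from -0.45 to 0.92, which as a fold is 1.18 with an interval from 0.732 to 1.90 (exact permutation p = 0.486, two-sided). Leaving out 1 tumour gave differences from 0.05 without Control 2 and 0.11 without Control 1 to 0.40 without Control 4 and 0.41 without Mutant 4. Over all 8 tumours the interval bounds a loss of S100a4 transcript in whole Mutant tumours at 0.732-fold and a gain at 1.90-fold. In whole tumours, fewer cells of a type and less RNA per cell cannot be told apart.

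The sorted S100a4 values of the 8 tumours had 1 gap wider than the others, and how often other genes show such a gap was not tested. The 5 high tumours lay within 0.12 of each other and the 3 low tumours within 0.25, and a gap of 0.67, or 1.59-fold, lay between the highest low tumour and the lowest high one. Over all 8 tumours the SD of S100a4 was 0.44, larger than that of 74.2% of genes, and the range was 2.06-fold. The slide held 2 rows of arrays, with tumours 1 and 2 of both groups in the first and tumours 3 and 4 of both groups in the second. In the first row both Mutant tumours were high and both Control tumours low, a difference of 0.90. In the second row only Mutant 4 was low, and the difference was -0.43. The row difference of S100a4, -1.33 with an SE of 0.34, had an unadjusted limma p of 0.00864 and an adjusted p of 0.366.

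**Figure D1:**
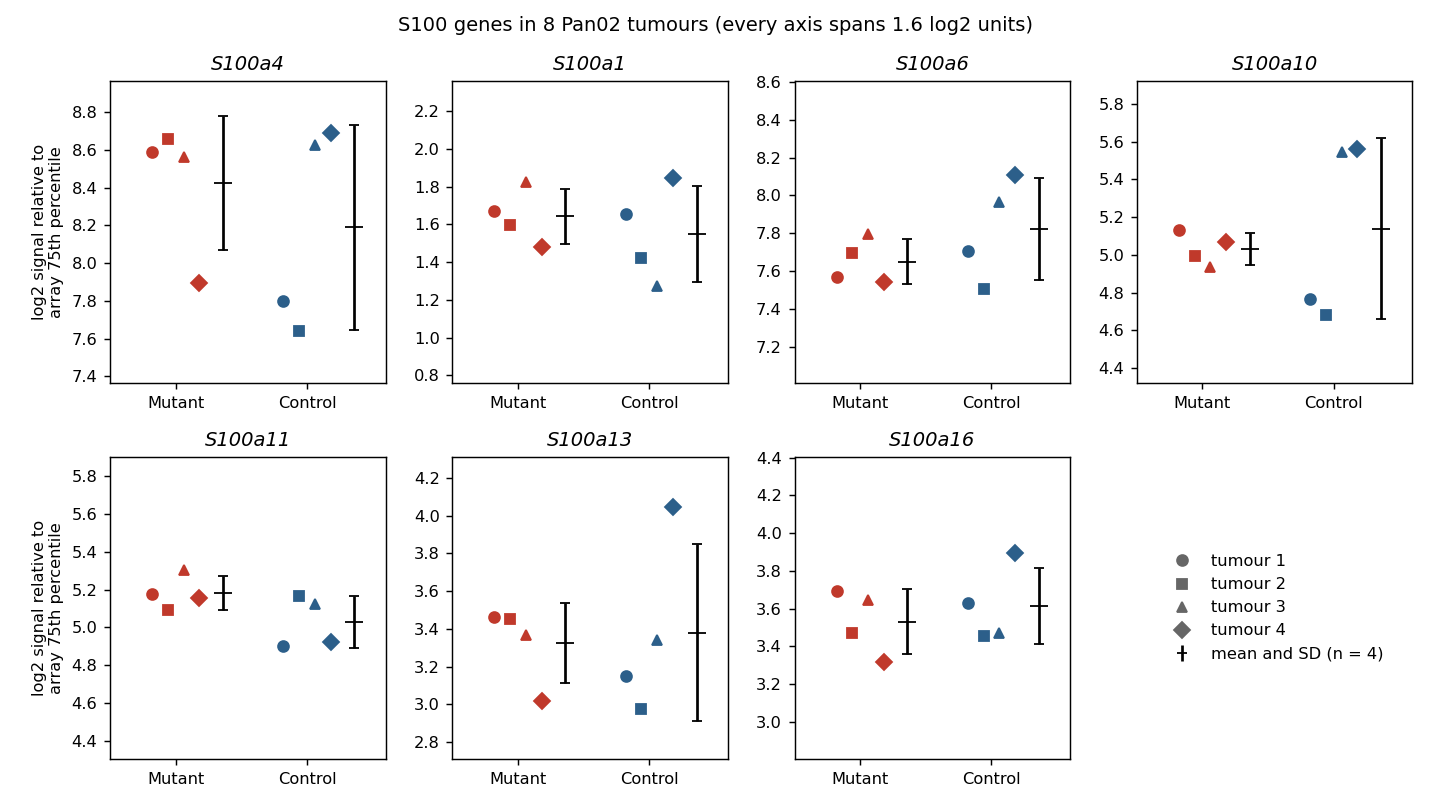
Signal of each S100 gene by tumour, as log2 of the processed signal minus that of the array's 75th percentile, with Mutant hosts on the left and Control hosts on the right of each panel. Coloured symbols are single tumours, black bars the mean and SD of 4, and every vertical axis spans the same length. S100a4 has its widest gap between 5 higher and 3 lower tumours, with both groups on each side, and S100a10 is spread widely in Control tumours and narrowly in Mutant tumours.

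S100a6, or calcyclin, binds the ubiquitin ligase adaptor encoded by Cacybp and is made by many proliferating and epithelial cells. It read 7.57, 7.69, 7.80 and 7.54 in Mutant tumours 1 to 4 and 7.71, 7.50, 7.97 and 8.11 in Control tumours 1 to 4. The highest values came from Control 3 and Control 4, and the other 6 tumours of both groups overlapped. The means were 7.65 ± 0.12 in Mutant and 7.82 ± 0.27 in Control tumours (SD, n = 4 each), and the difference was -0.17 with an SE of 0.15 and a 95% interval from -0.53 to 0.18 (exact permutation p = 0.343). Without Control 4 the difference was -0.08.

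S100a10 pairs with annexin A2 in a complex at the cell membrane that can bind plasminogen, and unlike most S100 proteins it does not need calcium for this. Its signal was 5.13, 4.99, 4.93 and 5.07 in Mutant tumours 1 to 4 and 4.77, 4.68, 5.54 and 5.56 in Control tumours 1 to 4. The Mutant tumours lay close together, inside the Control range, where 2 tumours lay below and 2 above all of them. The means were 5.03 ± 0.087 in Mutant and 5.14 ± 0.48 in Control tumours (SD, n = 4 each), with a difference of -0.11, an SE of 0.23 and a 95% interval from -0.63 to 0.42 (exact permutation p = 0.629). The difference was 0.34 in the first slide row and -0.55 in the second, and that row difference of S100a10, -0.89 with an SE of 0.21, had an unadjusted limma p of 0.00558 and an adjusted p of 0.354. The difference between groups was 0.03 without Control 3 and 0.03 without Control 4, so its sign depends on both. The second S100a10 probe gave -0.11 as well.

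S100a11, or calgizzarin, binds annexin A1. It varied least of the 7, with an SD over all tumours above that of only 11.5% of genes. It read 5.18, 5.09, 5.31 and 5.16 in Mutant tumours 1 to 4 and 4.90, 5.17, 5.12 and 4.92 in Control tumours 1 to 4. Control 1 and Control 4 lay below every Mutant tumour, and Control 2 and Control 3 lay among them. The means were 5.18 ± 0.089 in Mutant and 5.03 ± 0.14 in Control tumours (SD, n = 4 each), with a difference of 0.15, an SE of 0.11 and a 95% interval from -0.096 to 0.40 (exact permutation p = 0.171). This was the smallest limma p of the 7, at 0.192 unadjusted, and S100a11 and S100a1 were the only members of the 7 whose differences had the same sign in both slide rows, 0.10 and 0.21 for S100a11. The share of all genes with the same sign in both rows was not measured.

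S100a13 is known for its part in the release of FGF1 and IL1A, which leave cells without a signal peptide. Its signal was 3.46, 3.45, 3.37 and 3.02 in Mutant tumours 1 to 4 and 3.15, 2.98, 3.34 and 4.05 in Control tumours 1 to 4. Control 4 was higher than all others, and Mutant 4 and Control 2 were the lowest. The means were 3.33 ± 0.21 in Mutant and 3.38 ± 0.47 in Control tumours (SD, n = 4 each), and the difference was -0.05 with an SE of 0.24 and a 95% interval from -0.61 to 0.50 (exact permutation p = 0.886). It was 0.17 without Control 4 and 0.05 without Mutant 4. It was 0.39 in the first slide row and -0.50 in the second, and that row difference of S100a13 had an unadjusted limma p of 0.0595 and an adjusted p of 0.512.

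S100a16 is a widely expressed member, with no single best-known partner. It read 3.70, 3.47, 3.65 and 3.32 in Mutant tumours 1 to 4 and 3.63, 3.46, 3.47 and 3.89 in Control tumours 1 to 4. Control 4 was again the highest and Mutant 4 the lowest. The means were 3.53 ± 0.17 in Mutant and 3.61 ± 0.20 in Control tumours (SD, n = 4 each), and the difference was -0.08 with an SE of 0.14 and a 95% interval from -0.41 to 0.25 (exact permutation p = 0.6). The second S100a16 probe also gave -0.08, and without Control 4 the difference was 0.01.

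S100a1 is best known from heart and skeletal muscle, where it binds the ryanodine receptor and the calcium pump of the sarcoplasmic reticulum. It read 1.67, 1.59, 1.82 and 1.48 in Mutant tumours 1 to 4 and 1.65, 1.42, 1.27 and 1.85 in Control tumours 1 to 4. The lowest and the highest value both came from Control tumours. The means were 1.64 ± 0.14 in Mutant and 1.55 ± 0.25 in Control tumours (SD, n = 4 each), and the difference was 0.09 with an SE of 0.15 and a 95% interval from -0.26 to 0.44 (exact permutation p = 0.571). Without Control 4 it was 0.19 and without Control 3 it was 0.003. It was 0.10 in the first slide row and 0.09 in the second.

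Over the 7 genes, the SD was lower in Mutant than in Control tumours in 7 of 7. The same held for 79.7% of all genes, and without Control 4 for 5 of 7 S100 genes and 61.0% of all genes. The row differences were not called for any gene tested, 0.00% by adjusted p, while 10.3% of all genes and 2 of the 7 S100 genes had an unadjusted p under 0.05 for them.

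**Figure D2:**
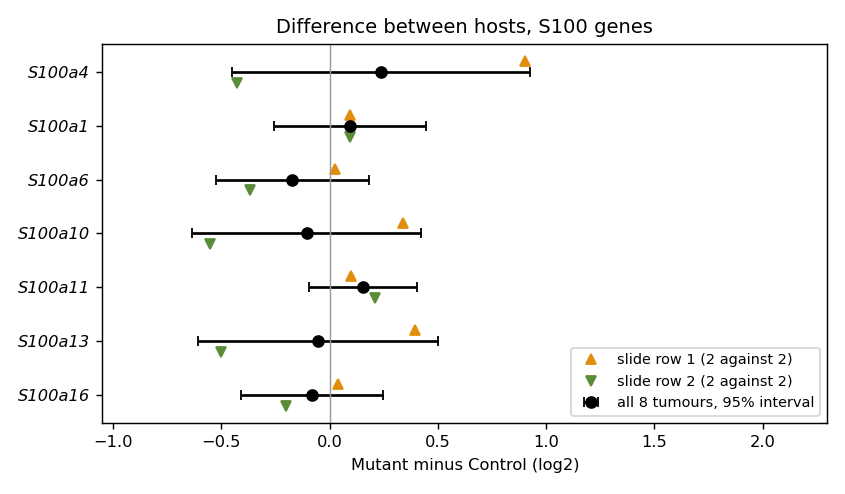
Mutant minus Control for each S100 gene on the log2 scale, with black points and bars for the estimate and 95% interval over 8 tumours and triangles for the difference within each slide row, 2 tumours against 2. All intervals cross 0, and 5 of the 7 genes, S100a4, S100a6, S100a10, S100a13 and S100a16, have a positive difference in row 1 and a negative one in row 2. The share of all genes with this pattern was not measured.

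The remaining S100 genes of the array gave no call either. Of 12 listed, 7 were measured, 3 of them lay above 0, none was called in limma, and their median difference was -0.01 against 0.01 over all genes. Without Control 4 the median was 0.02, against -0.02 over all genes. S100a8 and S100a9, the subunits of calprotectin from neutrophils and monocytes, averaged 4.47 ± 0.44 and 5.84 ± 0.44 in Mutant tumours and 3.55 ± 1.83 and 4.74 ± 1.85 in Control tumours (SD, n = 4 each). Their differences were 0.92 and 1.10, and without Control 4 they were 0.02 and 0.19. S100b, a Schwann and glial cell gene, differed by -0.53 with an SE of 0.48 (-0.10 without Control 4), and S100a2, an epithelial member, by -0.19 with an SE of 0.18. S100a5 and S100a7l2 were well above background on 0 arrays, S100a7a on 1 and S100z on 2, so they were not tested.

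Partners and receptors of S100 proteins were measured for 19 of 20 listed genes. They lay above 0 in 7 and below 0 in 12, none was called in limma, and the median difference was -0.05. Anxa2, the partner of S100a10, averaged 7.25 ± 0.25 in Mutant and 7.60 ± 0.38 in Control tumours (SD, n = 4 each), and the difference was -0.35 with an SE of 0.21 (exact permutation p = 0.2). It was -0.21 without Control 4. Ager, the RAGE receptor that several released S100 proteins bind, differed by -0.23 with an SE of 0.14, and Ppfibp1, the S100a4 partner liprin beta, by -0.24 with an SE of 0.17 (-0.14 without Control 4). Ryr1, the muscle ryanodine receptor bound by S100a1, had the largest difference among the 4 of smallest p, 1.70 with an SE of 0.96, and it is also one of the skeletal muscle genes below.

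How the S100 genes moved with the cell types of the tumour was described with list levels, each the mean log2 signal of the list's measured genes after centring every gene on its mean over the tumours. Fibroblast genes were measured for 16 of 16 and lay above 0 in 6, with a median difference of -0.04. Without Control 4 they lay above 0 in 13, with a median of 0.88. The fibroblast level ran from -1.09 to 1.00 in Mutant and from -1.07 to 2.19 in Control tumours, where the highest was Control 4. Pi16, a gene of adventitial fibroblasts, differed by -1.94 with an SE of 0.69 and an unadjusted limma p of 0.0237, Col6a1 by -0.31, Pdgfrb by 0.22 and Dpt by 1.08, and none passed the adjusted test. Without Control 4 the differences were -0.05 for Col6a1, 0.01 for Pdgfrb and 2.04 for Dpt. Epithelial genes expected of a carcinoma line were measured for 14 of 19 and lay above 0 in 5, with a median of -0.21 and of -0.03 without Control 4. The keratin genes Krt8 and Krt18 differed by -0.53 and -0.47 and Sox9, a ductal transcription factor gene, by -0.56, each with an unadjusted limma p under the threshold (0.0437, 0.0496 and 0.0319) and none after adjustment, and Cdh1, or E-cadherin, by -0.82 (-0.48 without Control 4). Epcam, Grhl2 and Ovol1 were well above background on 0 arrays, Cldn4 on 2 and Ocln on 3, so these defining epithelial markers were not reliably detected, while Krt8 and Krt18 were well above background on all 8 arrays.

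No relation of S100a4 to the fibroblast level was detected. The level was 0.30, 1.00, -1.09 and -0.34 in Mutant tumours 1 to 4 and -0.57, -0.41, -1.07 and 2.19 in Control tumours 1 to 4. Mutant 3 and Control 3 had the lowest fibroblast levels and high S100a4, while the 3 tumours of low S100a4 had middling fibroblast levels. Pearson's r over 8 tumours was 0.39 and Spearman's rho 0.52 (exact permutation p = 0.364 and 0.197, adjusted p = 0.558 and 0.698). The r was -0.19 without Mutant 2 and Control 4, the extremes of the fibroblast level, and 0.20 without Control 4 alone. With group means subtracted r was 0.41 (exact permutation within groups, p = 0.497, adjusted p = 0.839). A relation within the 3 tumours of low S100a4 or within the 5 of high S100a4 was not tested. With slide row means subtracted r was 0.44 (exact permutation within rows, adjusted p = 0.632). None of these values passed the adjusted threshold.

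Single fibroblast genes differed in their relation to S100a4. Of 16, 11 had an r above 0, with a median of 0.31, against 57.2% and a median of 0.10 among the 8521 genes whose SD was at least 0.25. Fbln1, which encodes the matrix protein fibulin 1, had the highest r among them, 0.80. Pdgfrb, a receptor of fibroblasts and pericytes, had the lowest, -0.57, and Pdgfra stood at -0.42 and Dcn, or decorin, at -0.27. The collagen genes Col1a1 and Col3a1 stood at 0.39 and 0.45.

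With the epithelial level S100a4 had an r of 0.64 and a rho of 0.52 (exact permutation p = 0.0911 and 0.197, adjusted p = 0.406 and 0.698). The pair did not pass the adjusted threshold. Its r was 0.57 without Mutant 4 and Control 4, the extremes of the epithelial level. With group means subtracted r was 0.79 (exact permutation within groups, p = 0.0243, adjusted p = 0.238). With slide row means subtracted r was 0.59 (exact permutation within rows, adjusted p = 0.442). Of 13 epithelial genes that varied enough, 10 had an r above 0 with S100a4, with a median of 0.28. Muc1, a mucin gene, and Msln, which encodes the tumour surface protein mesothelin, stood highest among them at 0.87 and 0.82. Spint1, a protease inhibitor gene, stood lowest at -0.48, and Krt8 and Krt18 stood at 0.26 and 0.15.

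The clearest relation was that of S100a6 with the epithelial level. That level was -0.10, -0.11, 0.32 and -0.56 in Mutant tumours 1 to 4 and -0.03, -0.37, 0.07 and 0.77 in Control tumours 1 to 4. S100a6 was highest in Control 4 and Control 3 and lowest in Control 2 and Mutant 4, which also had the lowest epithelial levels. Pearson's r was 0.88 (exact permutation p = 0.0034, adjusted p = 0.111 over 49 pairs) and rho 0.93 (exact permutation p = 0.00223, adjusted p = 0.109). With group means subtracted r was 0.88, with slide row means subtracted 0.87, without Control 4 it was 0.75, and without Mutant 4 and Control 4 it was 0.73. The pair did not pass the adjusted threshold. Of the 14 single epithelial genes, 12 had an r above 0 with S100a6, with a median of 0.59. The count was also 12 for S100a1, S100a13 and S100a16, and the share of all genes above 0 with S100a6 was not measured. Krt19 and Krt8 stood highest at 0.91 and 0.82, and Spint1 and Esrp1 lowest at -0.59 and -0.20.

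S100a13 and S100a16 also had high values of r with the epithelial level, 0.88 and 0.87 (exact permutation p = 0.00665 and 0.0068, adjusted p = 0.111 for both). Like that of S100a6, both rested in part on Control 4. Without Mutant 4 and Control 4 they were 0.52 for S100a13 and 0.45 for S100a16, with slide row means subtracted 0.87 and 0.92, and without Control 4 alone 0.68 and 0.71. S100a13 further had an r of 0.77 with the fibroblast level, 0.78 with the mesenchymal level and 0.70 with the macrophage level (adjusted p from exact permutation of 0.271, 0.271 and 0.303), and of 0.82, 0.78 and 0.79 with slide row means subtracted. Without the 2 extreme tumours of each level they were -0.02, -0.04 and 0.10. Of the 30 fibroblast and epithelial genes, the only ones compared singly with S100a13, Msln had the highest r, 0.97, and Pdgfrb the lowest, -0.87.

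Skeletal muscle genes had the largest median difference of the lists described here. All 16 lay above 0, with a median of 2.80 and of 1.96 without Control 4, although none passed the adjusted limma test. The muscle level was 1.90, 2.74, -0.94 and 1.54 in Mutant tumours 1 to 4 and -0.55, 0.32, -1.83 and -3.17 in Control tumours 1 to 4 (exact permutation p = 0.0857). Mutant 3 lay within the Control range, and Mutant 1, 2 and 4 lay above it. Myh4, a fast myosin, differed by 3.99 with an SE of 1.41, and Acta1, skeletal actin, by 2.05 with an SE of 0.69.

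No relation of S100a1 to the muscle level was detected, with an r of -0.20 and a rho of -0.21 (exact permutation p = 0.638 and 0.619, adjusted p = 0.76 and 0.843). Mutant 2, with the most muscle signal, read 1.59 for S100a1, and Control 4, with the least, read 1.85. S100a6 had an r of -0.82 and a rho of -0.76 with the muscle level (exact permutation p = 0.0129 and 0.0368, adjusted p = 0.158 and 0.6). This pair did not pass the adjusted threshold. Its r was -0.87 without Mutant 2 and Control 4, -0.80 with group means subtracted, -0.72 with slide row means subtracted and -0.67 without Control 4 alone. The part of muscle tissue in the S100a6 values was not tested.

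Of all 49 pairs of an S100 gene and a list level, 0 passed the adjusted threshold and 7 had an unadjusted exact permutation p under 0.05. Without Control 4 that number was 1, and with slide row means subtracted it was 3, with 0 past the adjusted threshold in both. S100a11 was the member with an r below 0 for 5 of the 7 levels, and its highest was 0.68 with the myofibroblast level (exact permutation p = 0.0638, adjusted p = 0.349).

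**Figure D3:**
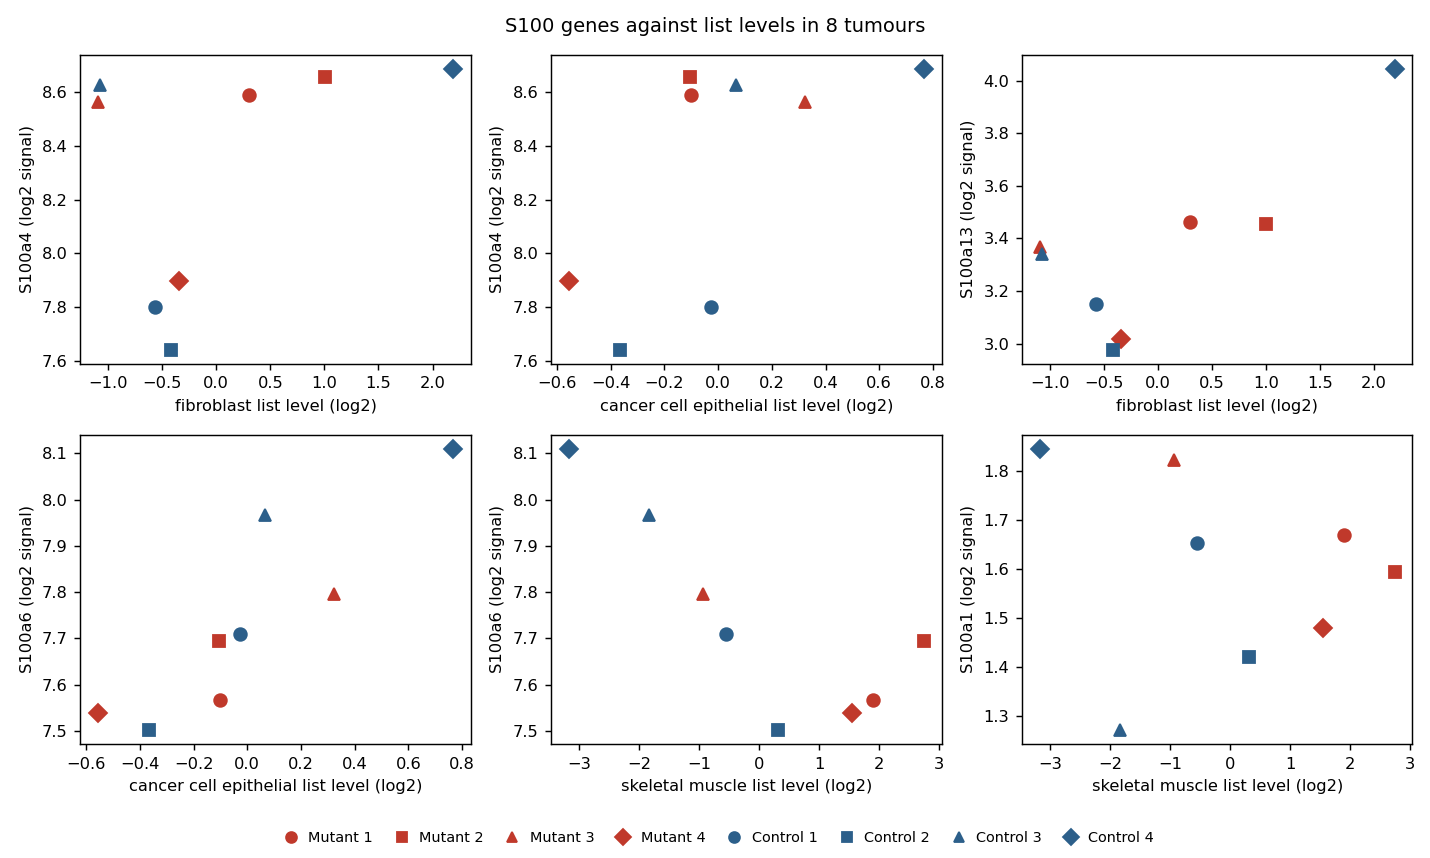
S100 gene signal on the vertical axis (log2, relative to the array's 75th percentile) against a list level on the horizontal axis (log2, mean of centred genes), 1 symbol per tumour. S100a4 is high at both ends of the fibroblast level (rho 0.52), S100a6 is mostly higher where the epithelial level is higher and mostly lower where the muscle level is higher, and Control 4 sits at the edge of every panel.

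The other lists give the setting of these values, and none of their genes was called in limma. Myofibroblast genes lay above 0 in 6 of 7 (median 0.47), with Acta2 at 0.89, Cnn1 at 0.96, Tagln at 0.66 (1.14 without Control 4) and Myl9 at 0.47. Mesenchymal state genes lay above 0 in 5 of 10 (median -0.04), and there the transcription factor gene Snai1 differed by 0.41 and Vim, or vimentin, by -0.24. Proliferation genes lay below 0 in 12 of 12 (median -0.11), and macrophage and monocyte genes above 0 in 13 of 16 (median 0.11), among them the monocyte gene Ly6c2 at 1.01 with an SE of 0.69. T and NK cell genes lay above 0 in 11 of 11 (median 0.37), neutrophil genes in 7 of 9 (median 0.62), endothelial genes in 9 of 10 (median 0.16), adipocyte genes in 4 of 5 (median 0.79) and Schwann cell genes in 1 of 6 (median -0.22). Over all genes 52.4% lay above 0. The levels of these lists overlapped between the groups, with an exact permutation p from 0.114 for adipocyte to 0.971 for mesenchymal state genes. That p was 0.714 for the T and NK cell level and 0.714 for the proliferation level. Without Control 4 the medians were 0.34 for mesenchymal state, -0.28 for proliferation, 0.33 for macrophage and monocyte, 0.92 for T and NK cell, 0.20 for neutrophil and 0.25 for Schwann cell genes. Of the cell types in which S100a4 is made, the macrophage and monocyte level gave an r of 0.36 with S100a4 and the myofibroblast level an r of -0.13. The mesenchymal level gave an r of 0.47 with S100a4. Their exact permutation p was 0.377, 0.746 and 0.235, in that order, and none passed the adjusted threshold. Without the 2 extreme tumours of each level these r were -0.02, -0.72 and 0.05.

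The S100 genes were compared with each other over the 8 tumours in 21 pairs. The median r was 0.47, 15 pairs lay above 0, and 0 passed the adjusted threshold by exact permutation, where the smallest adjusted p was 0.113. The median r and the share above 0 among pairs of other genes were not measured, so a closer relation among S100 genes was not tested. S100a13 was at the centre of the higher values, with an r of 0.81 with S100a16, 0.78 with S100a4, 0.78 with S100a6 and 0.70 with S100a10. S100a4 and S100a13 had an r of 0.94 without Control 4, and S100a6 and S100a13 had 0.48. S100a6 and S100a10 had an r of 0.77 that was -0.02 without Control 3 and Control 4. S100a1 and S100a16 stood at 0.77. With slide row means subtracted these 5 highest pairs had an r between 0.64 and 0.83.

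A relation of r to position in the gene cluster was not tested. S100a13 and S100a16, which have S100a14 between them, had the highest r, and the neighbours S100a1 and S100a13 had 0.61. The neighbours S100a11 and S100a10 had an r of -0.22, while S100a4 and S100a10, which are not neighbours, had 0.70. S100a11 had an r between -0.41 and 0.10 with the 6 others.

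**Figure D4:**
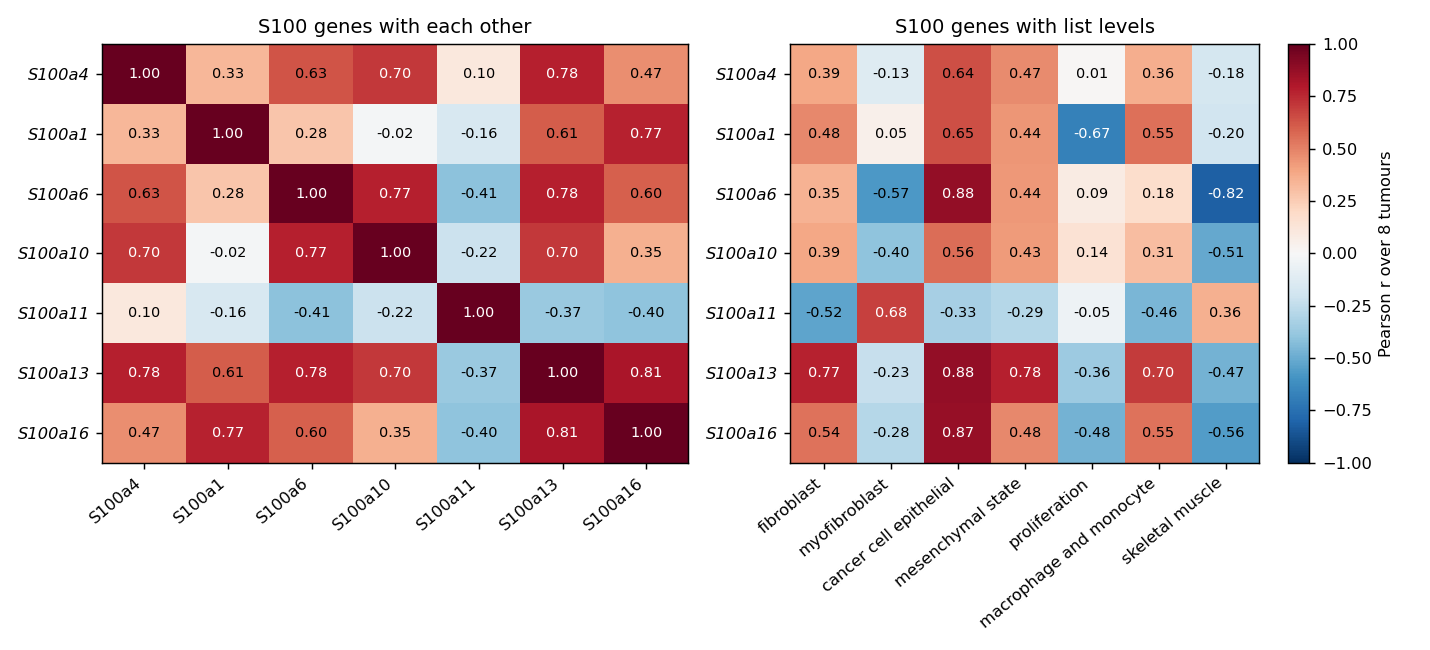
Pearson's r over 8 tumours between pairs of S100 genes (left) and between S100 genes and list levels (right), on a colour scale from -1 to 1. S100a11 stands apart from the other 6 genes, the epithelial column is positive for those 6, and no pair in either family passed the adjusted threshold.

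Among the 8521 genes whose SD over the tumours was at least 0.25, 12 had an r above 0.9 with S100a4 and 7 an r below -0.9. The 6 named genes with the highest r were Amacr, a peroxisomal and mitochondrial racemase gene, at 0.96, Tent5b, a poly(A) polymerase gene, at 0.96, Apol7a, an apolipoprotein L gene, at 0.94, Mcub, a subunit of the mitochondrial calcium uniporter, at 0.93, Mall, a gene of the MAL family of membrane proteins, at 0.93, and Tmem184a at 0.92. Tent5b read 1.42, 1.42, 1.26 and 0.63 in Mutant tumours 1 to 4 and 0.32, 0.50, 1.22 and 1.21 in Control tumours 1 to 4. Amacr read 1.38, 1.26, 1.41 and 1.00 in Mutant tumours 1 to 4 and 0.88, 0.82, 1.51 and 1.51 in Control tumours 1 to 4. In all 6 genes, Mutant 4, Control 1 and Control 2 were the lowest tumours, as for S100a4.

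The 3 genes with the lowest r were Mtss2, a gene for a membrane-bending protein, at -0.95, Dbndd1 at -0.95 and Cilp2, a cartilage matrix gene, at -0.94. Cilp2 read -3.41, -3.34, -3.17 and -2.92 in Mutant tumours 1 to 4 and -2.25, -2.14, -3.51 and -3.48 in Control tumours 1 to 4. In all 3 genes the tumours of low S100a4 were the highest. These values were picked for their likeness out of all these genes over 8 tumours, and they carry no test.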

How the data were processed

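RNA of 8 whole tumours was measured on 1-colour Agilent arrays, with Cy3 label and 0.5 ug of RNA as input per the labels' protocols. Per the file headers, the intensity columns were written by Agilent Feature Extraction 10.7.3.1. The submitters' processing notes give version 9.1 instead. The deposited processed signal is a background-subtracted intensity, linear, with arrays not scaled to each other. The deposited flag columns have no unit (other). The authors' deposited value table, also an intensity, equals the mean processed signal of a probe's spots within 0.01% for 99.46% to 99.51% of probes. Its column medians were 52.8 to 61.8, so it was neither centred nor scaled, and no ratio or direction is involved. No probe was saturated on any array. All arrays lay on 1 slide with 1 scan.

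Outlier spots (66 to 117 per array) and control spots were dropped and replicate spots averaged. The log2 of each array's 75th percentile (575.9 to 740.7 on the linear scale) was subtracted. A probe entered if it was well above background on 4 or more of the 8 arrays and had a usable spot on each. A RefSeq accession gave 1 gene for 32994 of 56605 probes (58.3%), and the probe with the highest mean stood for its gene, leaving 16056 genes. The Mutant and Control groups were tested in limma 3.58.1 (R 4.3.3), with Benjamini-Hochberg adjustment over all genes, and single values by two-sided exact permutation over 70 arrangements, where the smallest p is 0.0286. Correlations have two-sided exact permutation p-values over 40320 pairings, or 576 within groups or within slide rows, adjusted over 49 pairs with list levels and 21 pairs of members. Python 3.11.15 and pandas 2.3.3 handled the tables.

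The members and gene lists were chosen with earlier results of these data known. The lists were members, other S100 genes, S100 partners and receptors, and fibroblast, myofibroblast, cancer cell epithelial, mesenchymal state, proliferation, macrophage and monocyte, T and NK cell, neutrophil, endothelial, skeletal muscle, adipocyte and Schwann cell genes. Named are all members, up to 4 genes of smallest limma p in a list, and the 6 genes of highest and 3 of lowest r with S100a4 among genes of SD at least 0.25, without predicted models. Single list genes named with their r (Fbln1, Pdgfrb, Pdgfra, Dcn, Col1a1, Col3a1, Muc1, Msln, Spint1, Krt19, Esrp1) were chosen after their values were seen.

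On simulated data for the Mutant against Control comparison (16056 genes, 200 changed, 10 draws) 47.5% of 2-fold and 78% of 4-fold changes were recovered, with 5.01% false calls. Tumours were treated as independent, from 4 mice per group per the design text, and arrays give no count depth, so precision rests on the number of arrays. No pairing by replicate number was seen: same-numbered tumours' deviations from the group means correlated at 0.08, -0.31, 0.05 and -0.31. Alternatives covered background, normalization, filters, probe choice, the deposited table, array weights, a trended prior variance, blocks for replicate number and for slide row, and leaving out each tumour.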

Additional observations from a re-analysis of the deposited data

Results flagged for a closer look

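S100a4 in Mutant 4 was 7.90, where the other 3 Mutant tumours lay between 8.56 and 8.66. The gap to the nearest of them was 0.879 of the group's range, above Dixon's 95% critical value for 4 samples. S100a8 in Control 4 was 0.85, against 4.05 to 4.69 in the other Control tumours (gap ratio 0.832), and S100a9 in Control 4 was 1.99, against 5.41 to 5.98 (gap ratio 0.856). S100a8 and S100a9 share cells of origin, so these values are not independent of each other. The 3 values came from 32 groups of 4 checked, and chance alone marks about 5% of groups at this critical value.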

How the results depend on the processing

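The count of genes called was 0 under all 19 alternatives, and no S100 gene was called under any of them in limma. The number of genes with an unadjusted p under 0.05 was 467, 1386 with array weights, and between 195 without Mutant 1 and 971 without Control 2 when 1 tumour was left out (305 without Control 1, 257 without Mutant 4). The S100a4 difference of 0.24 stayed above 0, between 0.05 (without Control 2) and 0.43 (array weights), with adjusted p of at least 0.654. With the replicate number as a block it was 0.24, 0 genes were called and 372 had an unadjusted p under 0.05. No Mutant tumour correlated best with the Control tumour of its own number. The sign changed for S100a10 (0.152 with array weights, -0.258 to 0.0342 leaving out 1 tumour), S100a13 (0.11 with array weights, -0.19 to 0.17) and S100a16 (-0.136 to 0.0118). S100a1, S100a6 and S100a11 kept their sign. Without the 2 extreme tumours the sign changed for S100a4 with the fibroblast level (-0.19), S100a13 with the fibroblast (-0.0163) and mesenchymal (-0.0370) levels, and S100a6 with S100a10 (-0.0183). The cause was not tested. Subtraction of slide row means, the counts without Control 4 and all alternatives for pairs of S100 genes were chosen after seeing the data.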
